A study of Mus musculus with 6 samples.

Results

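The genes described here are the Wnt ligands, their receptors, the secreted proteins that bind either of them, and the genes that the pathway induces in its own cells. They were read from a table of 16894 genes as every symbol that consists of Wnt, Fzd, Sfrp, Dkk or Rspo, a number and at most 1 letter, together with 14 genes named singly (Frzb, Wif1, Lrp5, Lrp6, Ror1, Ror2, Ryk, Axin2, Lef1, Tcf7, Nkd1, Nkd2, Znrf3 and Rnf43). The rule used no measured value and found 43 genes. These are 12 Wnt ligands, 10 Frizzled receptors, 2 LRP co-receptors, 3 other Wnt receptors, 3 secreted Frizzled-related proteins, Frzb and Wif1, 2 Dickkopf proteins, 3 R-spondins, the ubiquitin ligase Znrf3, 3 feedback inhibitors and 2 TCF/LEF factors. Rnf43 and 11 further family genes (Dkk1, Dkk4, Rspo4, Sfrp5, Wnt10a, Wnt3, Wnt3a, Wnt6, Wnt7a, Wnt8a and Wnt9b) were not analysed here.

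The study asked how senescence changes fibroadipogenic progenitors (FAPs), the mesenchymal cells of skeletal muscle that give rise to fibroblasts and adipocytes and support regeneration. FAPs were isolated from hindlimb muscles of male and female C57BL/6 mice aged 3 to 6 months, by magnetic selection of cells that lacked CD45, CD31 and α7-integrin and carried SCA-1, and both groups were grown in serum and bFGF at low oxygen. Senescent FAPs had been exposed to 20 μM etoposide, a topoisomerase poison that breaks DNA, over 48 h and were harvested after 5 days without the drug. Control FAPs were not senescent, and the sources used here do not state whether they received a vehicle. The mRNA of 3 control and 3 senescent samples, replicates 1 to 3 of each group, was sequenced in bulk. The labels do not say whether replicates came from separate animals or cultures, so p values measure the spread between these libraries. This is a model of drug-induced damage in culture and holds no aged muscle.

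Wnt proteins are lipid-modified signals that act over short distances. A Wnt that joins a Frizzled to LRP5 or LRP6 stabilizes β-catenin, which enters the nucleus and works with TCF/LEF factors, whereas Ror1, Ror2 and Ryk carry signals that need no β-catenin. Secreted Frizzled-related proteins, Frzb and Wif1 bind Wnt proteins, typical Dickkopf proteins occupy LRP5 and LRP6, and R-spondins keep Frizzled receptors on the surface by withdrawing Znrf3 and Rnf43. In skeletal muscle, Wnt signals are known to act on satellite cells and on the fibrogenic and adipogenic choices of FAPs.

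Every value in the deposited table was a whole number of reads divided by an effective library size, here called CPM. The change between groups was tested with limma on log2(CPM + 0.5) in the 14776 genes that reached 0.5 CPM in 3 or more libraries, and a log2 fold change is senescent against control on that scale, which understates the change of low genes. Of the 43 genes, 39 passed this filter, and Wnt7b, Wnt8b, Fzd9 and Rspo1 did not. Fzd10 and Wif1 passed through their senescent libraries alone. At a Benjamini-Hochberg adjusted p under 0.05, 13 of the 39 were higher and 4 were lower in senescent FAPs, against 21.8% higher and 24.3% lower among all genes tested. These counts ran from 8 to 12 higher and from 1 to 6 lower when 1 library was left out, with 8 higher without senescent replicate 2 or 3, 1 lower without control replicate 3 or senescent replicate 2 or 3, 2 lower without control replicate 1, and 6 lower without senescent replicate 1. With all libraries, the members called were 33.3% higher and 10.3% lower, and 43.6% in either direction against 46.1% of all genes. At the cut-off of the study (log2 fold change past 1 and p before adjustment below 0.01), 7 members were higher (17.9%, against 6.93% of all genes) and 1 was lower (2.56%, against 3.9%). The 7 were Fzd10, Sfrp4, Frzb, Wif1, Dkk2, Rspo3 and Nkd2, and the lower one was Wnt16. The study applied this cut-off to edgeR results. It reported more genes in each direction than the 1024 higher and 576 lower by limma here. Genes that reached the filter in no library of one group, Fzd10 and Wif1 among them, could pass it only by differing. Without such genes, 11 of 37 members were higher by adjusted p (29.7%, against 19.6% of all genes) and 5 past the cut-off of the study (13.5%, against 5.47%). Among the 39 tested members, the control and senescent ranges did not overlap in 12 that were higher in senescent FAPs (30.8%) and in 5 that were lower (12.8%). Among all genes tested these shares were 26.5% and 30.9%. In either direction they were 43.6% of the members and 57.4% of all genes. The median log2 fold change was 0.15 over the members and -0.03 over all genes tested.

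**Figure D1:**
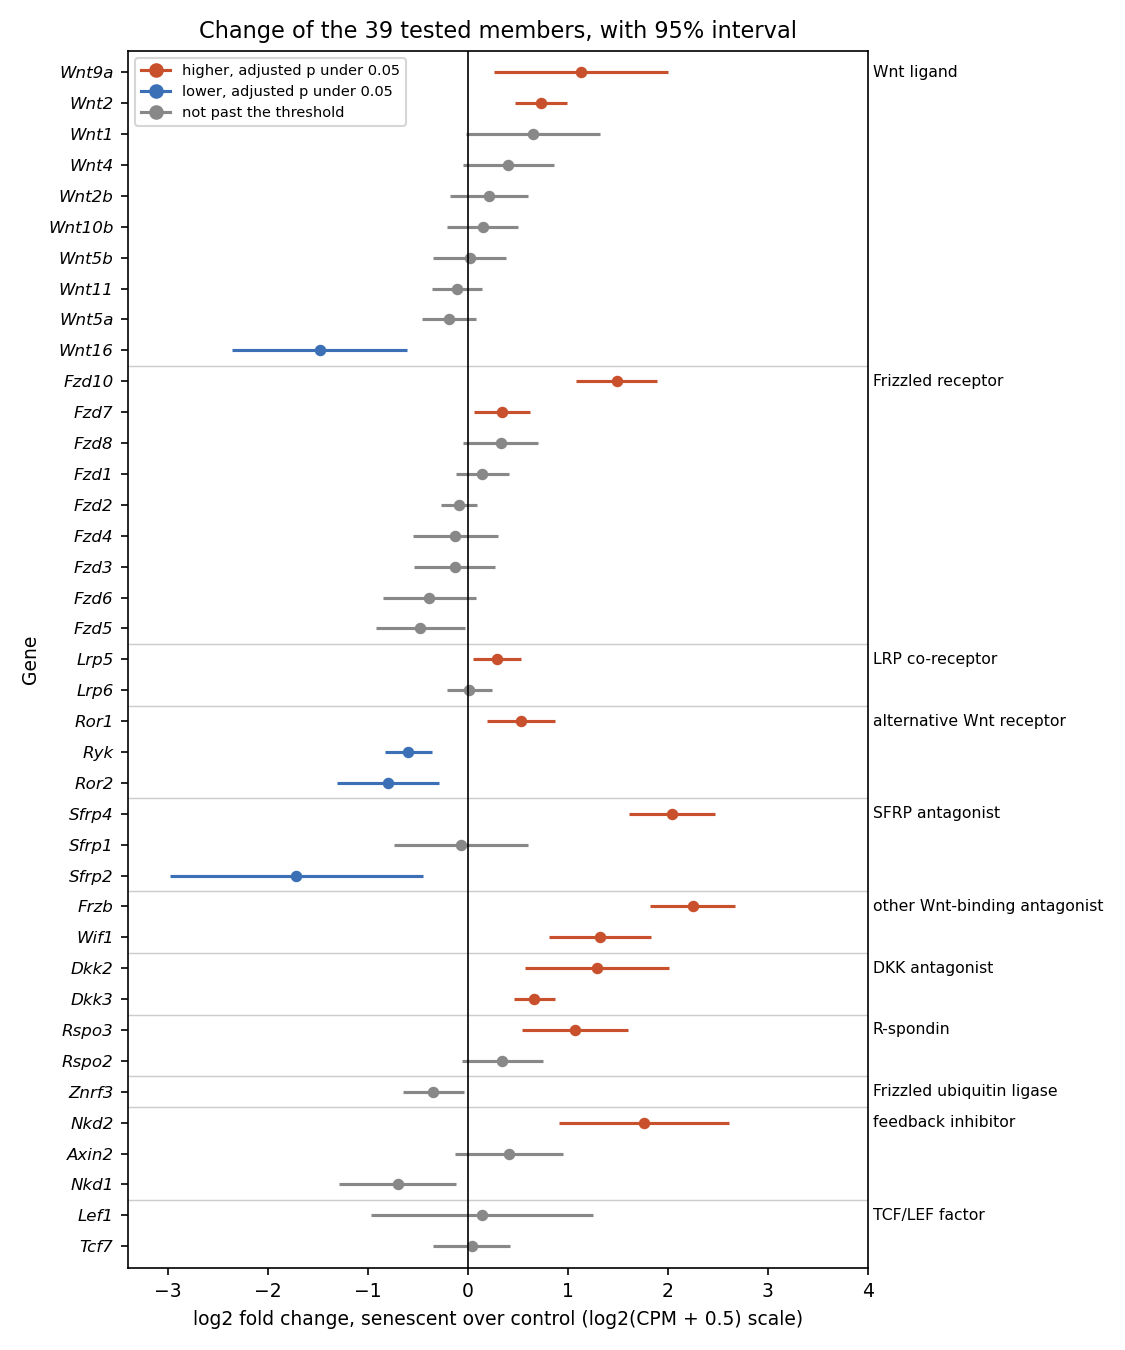
Log2 fold change, senescent against control FAPs, on log2(CPM + 0.5), for the 39 tested Wnt genes, with points for limma estimates, bars for 95% confidence intervals and colors for the call at an adjusted p under 0.05. On this scale, which understates low genes such as Fzd10 and Wif1, Frzb and Sfrp4 had the largest increases, at 2.25 and 2.04. Sfrp2 and Wnt16 had the largest decreases, at -1.72 and -1.49.

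The promoters of the 8 members past both the p and the fold threshold are shown for what their sequences share, as far as RefSeq entries (GRCm38.p6) held them. Entries were at hand for 29 of the 43 genes and for 6 of these 8, all except Sfrp4 and Rspo3. Each sequence runs 5′ to 3′ on the strand of its gene, from 250 bases before the RefSeq start to 50 bases after it. For Frzb, Fzd10 and Wif1 that start lies inside the gene as annotated in GENCODE. Most of the Frzb window and all of the Fzd10 window are therefore within the GENCODE gene. Capitals mark a match to CTTTGA, the core bound by TCF/LEF factors, or to TATAAA, the TATA box, on either strand, and the motifs do not overlap each other in these windows.
Frzb (chr2:80447347-80447646, minus strand): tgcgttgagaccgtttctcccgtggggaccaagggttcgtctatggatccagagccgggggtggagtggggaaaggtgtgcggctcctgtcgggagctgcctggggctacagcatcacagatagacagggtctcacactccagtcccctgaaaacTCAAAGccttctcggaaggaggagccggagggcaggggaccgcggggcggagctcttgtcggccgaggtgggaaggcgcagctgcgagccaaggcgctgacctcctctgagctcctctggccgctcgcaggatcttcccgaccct
Dkk2 (chr3:132085042-132085341, plus strand): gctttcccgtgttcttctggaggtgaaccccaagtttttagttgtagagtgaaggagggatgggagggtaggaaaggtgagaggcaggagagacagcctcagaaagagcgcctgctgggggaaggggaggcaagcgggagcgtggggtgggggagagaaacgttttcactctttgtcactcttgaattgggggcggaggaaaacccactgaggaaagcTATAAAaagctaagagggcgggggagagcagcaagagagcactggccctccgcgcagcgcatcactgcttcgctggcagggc
Wif1 (chr10:121033754-121034053, plus strand): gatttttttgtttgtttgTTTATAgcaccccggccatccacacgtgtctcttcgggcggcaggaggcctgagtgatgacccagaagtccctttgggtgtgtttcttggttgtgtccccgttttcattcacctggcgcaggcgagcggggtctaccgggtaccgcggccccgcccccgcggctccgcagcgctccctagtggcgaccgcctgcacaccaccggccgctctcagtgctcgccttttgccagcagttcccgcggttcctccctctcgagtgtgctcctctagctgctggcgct
Fzd10 (chr5:128600856-128601155, plus strand): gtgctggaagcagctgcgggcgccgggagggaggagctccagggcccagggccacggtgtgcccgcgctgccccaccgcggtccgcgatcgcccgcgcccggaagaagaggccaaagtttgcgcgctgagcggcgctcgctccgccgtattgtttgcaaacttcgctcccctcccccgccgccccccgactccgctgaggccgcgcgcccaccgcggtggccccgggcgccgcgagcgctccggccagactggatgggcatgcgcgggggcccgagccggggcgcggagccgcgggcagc
Nkd2 (chr13:73847582-73847881, minus strand): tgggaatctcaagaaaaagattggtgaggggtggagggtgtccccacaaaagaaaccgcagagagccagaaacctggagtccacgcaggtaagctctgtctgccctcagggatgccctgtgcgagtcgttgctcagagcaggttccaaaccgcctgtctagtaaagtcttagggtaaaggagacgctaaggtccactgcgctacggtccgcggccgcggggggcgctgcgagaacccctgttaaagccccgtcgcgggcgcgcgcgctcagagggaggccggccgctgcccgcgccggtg
Wnt16 (chr6:22287977-22288276, plus strand): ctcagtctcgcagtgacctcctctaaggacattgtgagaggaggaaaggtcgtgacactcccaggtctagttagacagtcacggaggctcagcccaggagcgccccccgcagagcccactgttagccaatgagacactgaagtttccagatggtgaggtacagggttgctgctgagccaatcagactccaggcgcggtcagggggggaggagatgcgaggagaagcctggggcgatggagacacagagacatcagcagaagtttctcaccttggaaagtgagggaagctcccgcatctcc
The Frzb window held 1 TCF/LEF core, on the opposite strand and read here as TCAAAG. Its first base was 95 bases before the RefSeq start, which is inside the gene by GENCODE. The Dkk2 window held a TATA box 32 bases before the start, and that of Wif1 held its reverse complement 232 bases before the start. Neither motif was in the Fzd10, Nkd2 and Wnt16 windows. Among all 32851 promoters of this kind, 16.0% held the TCF/LEF core and 13.6% TATAAA, at any position and on either strand, so both are common. Of the 36 member promoters, some genes having several starts, 6 held the TCF/LEF core (16.7%, in Frzb, Lef1, Ror1, Fzd1, Wnt5b and Wnt11) and 7 held TATAAA (19.4%). The TATAAA matches lay from 8 (Tcf7) to 232 (Wif1) bases before the start, so they count a sequence and not placed TATA boxes. Counted by gene over all starts, these are 20.7% and 24.1% of 29 members, against 18.2% and 15.7% of 27025 genes. The Fzd10 window was the richest in GC among these 6, with 77.7% G or C and 45 CpG dinucleotides, whereas the Dkk2 window had 11 CpG and the median over all promoters was 7. Windows of members outside these 6, such as Wnt4, Wnt2b and Fzd9, were richer in GC than that of Fzd10.

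Libraries held 41412179 to 59912520 reads on genes, so that 1 read was worth 0.0167 to 0.0225 CPM. All 13 FAP markers were listed, of which 6 rose and 1 fell, with Pdgfra at 126 to 238 CPM in control and 182 to 254 CPM in senescent FAPs and Ly6a, which encodes SCA-1, at 220.4 to 456 and 538 to 678 CPM, although Lum was nearly absent from control FAPs (0.179 to 0.951 CPM). Cd34 and Dcn rose by 1.60 and 1.79 on the log2 scale (limma adjusted p = 6.99e-04 and 0.00465), and Col1a1 fell by 2.29 (0.00150). Thy1 set replicate 1 apart in both groups, with 489 CPM in control and 615 CPM in senescent replicate 1 against 41.3 to 73.6 CPM in the other libraries. Among markers of senescence, the cell cycle inhibitor Cdkn1a rose (log2 fold change 1.85, limma adjusted p = 1.01e-04), the proliferation marker Mki67 fell by 3.55 and Lmnb1 fell by 2.16 on the log2 scale, and Cdkn2a did not pass the test (0.13, limma adjusted p = 0.765). Pax7, Myf5, Myod1, Myog and Cdh15 of satellite and muscle cells, and Ptprc, Adgre1, Cd3e and Cd79a of leukocytes, were not among the genes listed. The 5 satellite and muscle markers listed, of 13, summed to 39.3 to 58.6 CPM in control and 39.8 to 41.5 CPM in senescent FAPs. Among them Itga7, which encodes the α7-integrin selected against, rose (log2 fold change 0.83, limma adjusted p = 0.00771) and Acta1 fell by 1.49 (0.00424). The 5 leukocyte markers listed, of 12 looked for, summed to 10.9 to 13.8 CPM in control and 26.4 to 32.5 CPM in senescent FAPs. Of these, 4 rose (Cd53 by 2.42, Lyz2 by 1.53, Cd68 by 1.43 and Itgam by 1.11 on the log2 scale) and Csf1r did not pass the test. Itgam passed the filter through its senescent libraries alone. The 8 mural markers, of which Acta2 took most, summed to 4523 to 6479 CPM in control and 1717 to 2691 CPM in senescent FAPs. Of these, 2 rose (Notch3 by 1.67 and Rgs5 by 1.54 on the log2 scale), 3 fell (Acta2, Cspg4 and Mcam), and the part of these cell types in the results below was not tested. The 6 endothelial markers listed, of 10, summed to 21.6 to 42.4 and 25.7 to 33.7 CPM, and the 6 tendon and nerve sheath markers listed, of 7, to 21.4 to 55.4 and 21.5 to 26.4 CPM. Of 5 endothelial markers tested, 2 rose (Pecam1 by 0.89 and Vwf by 0.64 on the log2 scale) and Kdr fell by 0.74 (limma adjusted p = 0.00897, 0.0241 and 0.00989). Of 5 tendon and nerve sheath markers tested, 2 rose (Mkx by 1.28 and S100b by 1.12) and Tnmd fell by 1.80 (limma adjusted p = 0.0137, 0.0273 and 0.0195). In bulk RNA, fewer cells of a type and less RNA per cell cannot be told apart.

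Among the Wnt ligands, Wnt9a and Wnt2 rose, Wnt16 fell, and the other 7 tested ligands did not pass the test. Compared per length, in CPM per kb of annotated exon, Wnt9a and Wnt2 were the most abundant ligands of control FAPs at 14.6 ± 7.63 and 14.3 ± 1.99 (SD, n = 3), and their ranges overlapped. Wnt5a followed at 9.19 ± 1.15 CPM per kb and Wnt11 at 5.94 ± 0.747 CPM per kb, each apart from its neighbors in this order. The wide control range of Wnt9a (8.10 to 23.0 CPM per kb) nevertheless overlapped that of Wnt5a (8.09 to 10.4 CPM per kb). Wnt10b, Wnt16, Wnt2b, Wnt4, Wnt1 and Wnt5b lay between 3.70 and 1.00 CPM per kb in control FAPs, and each neighbor in that row overlapped the next. In senescent FAPs Wnt9a reached 30.4 ± 8.90 and Wnt2 reached 23.7 ± 1.23 CPM per kb, again with overlapping ranges, and the next ligand was Wnt5a at 8.03 ± 0.847 CPM per kb. Wnt16 was last of the 10 tested ligands in senescent FAPs, at 0.692 ± 0.251 CPM per kb.

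**Figure D2:**
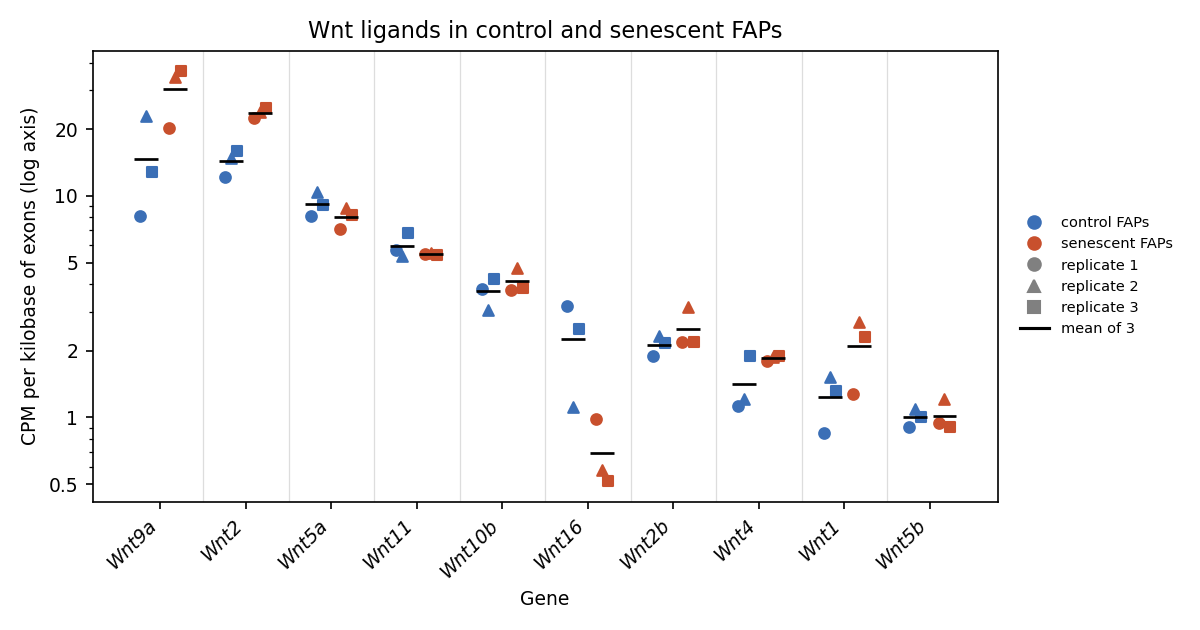
Level of the 10 tested Wnt ligands in CPM per kb of annotated exon on a log axis, with 1 point per library, a marker shape for each replicate number and lines for the means of 3 control and 3 senescent libraries. Wnt9a and Wnt2 have the highest means in both groups, and the mean of Wnt16 drops from 2.26 to 0.692 CPM per kb.

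Wnt2 (chr6:17988940-18030585), a ligand that acts through β-catenin in lung and vessel development, had 27.4, 33.3 and 36.1 CPM in control replicates 1, 2 and 3 and 50.6, 54.0 and 56.1 CPM in senescent replicates 1, 2 and 3. All 3 senescent libraries were above all 3 control libraries, and the rise had a log2 fold change of 0.73 (SE 0.11, limma adjusted p = 0.00195). Wnt9a (chr11:59306928-59333552), a ligand known from joint formation, had 27.0, 76.6 and 42.5 CPM in control and 67.3, 115 and 122 CPM in senescent FAPs, replicates in the same order. Here the groups overlapped, since control replicate 2 was above senescent replicate 1, while replicate 1 was the lowest library of both groups. The Wnt9a rise (log2 fold change 1.13, SE 0.37, limma adjusted p = 0.0398) was the least stable of the ligand calls. It was lost without control replicate 1 or 3 or senescent replicate 2 or 3 (limma adjusted p = 0.0908 to 0.134), without the variance trend (0.0591) and in DESeq2 (0.0603).

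Wnt16 (chr6:22288227-22298522), a ligand with a known part in cortical bone, had 13.8, 4.85 and 10.9 CPM in control replicates 1, 2 and 3 and 4.27, 2.53 and 2.25 CPM in the senescent replicates. Every senescent library was below every control library, although control replicate 2 came close to senescent replicate 1. Wnt16 fell by 1.49 on the log2 scale (SE 0.38, limma adjusted p = 0.0149), and this call was lost without control replicate 3 or senescent replicate 2 or 3 (limma adjusted p = 0.0509 to 0.0623). Wnt5a (chr14:28504750-28527448), the main ligand of β-catenin-independent signaling, had 63.3, 81.2 and 71.2 CPM in control and 55.7, 68.9 and 63.8 CPM in senescent FAPs. Its groups overlapped, and the log2 fold change was -0.19 (95% confidence interval -0.46 to 0.08, limma adjusted p = 0.211). Exons of Wnt5a share 358 bases with Gm2670 on the opposite strand, and whether the counting used strand is not given in the sources used here.

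The remaining tested ligands had log2 fold changes from -0.11 (Wnt11) to 0.65 (Wnt1). Wnt1 (chr15:98789857-98793837), whose neighbor Wnt10b lies on the opposite strand at chr15:98770712-98778150, had 2.03, 3.61 and 3.14 CPM in control and 3.04, 6.41 and 5.49 CPM in senescent FAPs. Each senescent library was above the control library of the same number although the groups overlapped, and Wnt1 did not pass the test (limma adjusted p = 0.102) except with the replicate number as a block (0.0105), without senescent replicate 1 (0.0222), after division by library totals (0.0492) and in DESeq2 (0.0403). Wnt4 had 4.71, 5.08 and 7.97 CPM in control and 7.55, 7.86 and 7.97 CPM in senescent FAPs (log2 fold change 0.40, limma adjusted p = 0.126). Without control replicate 3, the one control library at the senescent level, the Wnt4 adjusted p was 0.0187, and after division by library totals it was 0.0366. Wnt2b, Wnt10b and Wnt5b had log2 fold changes of 0.21, 0.15 and 0.02, with adjusted p from 0.341 to 0.941 in limma.

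A pair of ligands lay below the filter and had reads mainly in senescent FAPs. Wnt8b had no read in any control library and 11, 11 and 24 reads in senescent replicates 1, 2 and 3, a level at least 15.2-fold higher against a floor of 3 reads over the control group (0.0196 CPM). Wnt7b had 3, 7 and 4 reads in control and 14, 17 and 13 reads in senescent FAPs, a ratio of 3.11 with an exact 95% interval of 1.67 to 6.15. These intervals and floors cover counting error only. The highest level of either gene in any library was 0.540 CPM, for Wnt8b.

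Summed over the 12 ligands, the level was 45.8, 63.9 and 57.8 CPM per kb in control replicates 1, 2 and 3 and 66.3, 87.1 and 86.9 CPM per kb in the senescent replicates. The groups did not overlap, with means of 55.8 ± 9.19 and 80.1 ± 12.0 CPM per kb (SD, n = 3). Wnt9a made up 25.3% ± 9.59 of the control and 37.4% ± 6.09 of the senescent sum, and Wnt2 25.8% ± 2.38 and 29.97% ± 3.39. The share of Wnt5a was 16.6% ± 0.998 in control and 10.1% ± 0.678 in senescent FAPs, although its own level did not pass the test.

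Of the receptors, Fzd7, Fzd10, Lrp5 and Ror1 rose and Ryk and Ror2 fell, while Fzd1, Fzd2 and Lrp6 were among those that did not pass the test. Fzd1, Fzd7 and Fzd2 were the 3 most abundant Frizzled genes in both groups, at 22.5 ± 2.62, 16.3 ± 2.35 and 13.9 ± 1.06 CPM per kb in control FAPs. The control ranges of Fzd7 and Fzd2 overlapped, and that of Fzd1 lay above both. In senescent FAPs the same order held at 24.9 ± 2.99, 20.6 ± 1.77 and 13.1 ± 0.0606 CPM per kb, with none of the 3 ranges overlapping. Fzd5, Fzd4, Fzd8, Fzd6 and Fzd3 ranged from 4.33 down to 0.364 CPM per kb in control FAPs. Ryk exceeded every Frizzled gene, at 58.4 ± 6.27 CPM per kb in control and 38.4 ± 2.79 CPM per kb in senescent FAPs.

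**Figure D3:**
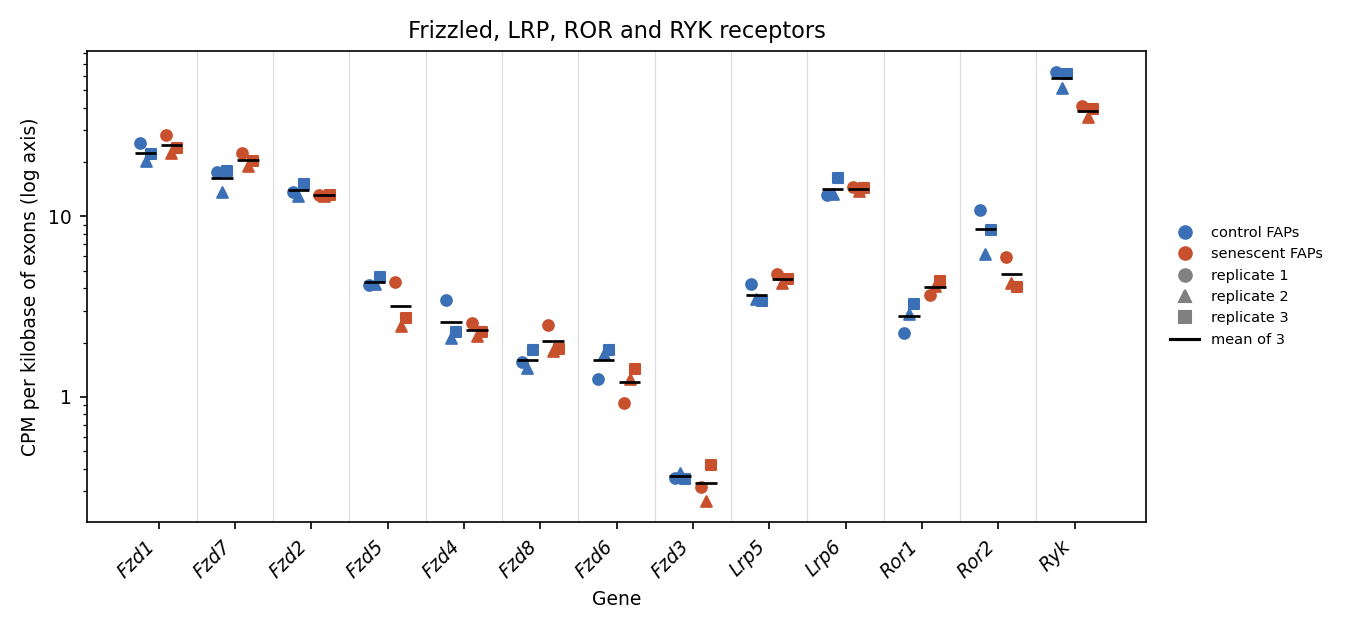
Level of 13 Wnt receptors in CPM per kb of annotated exon on a log axis, with 1 point per library, a marker shape for each replicate number and lines for the group means; Fzd9 and Fzd10 lie lower and are left out. Ryk leads both groups and drops from 58.4 to 38.4 CPM per kb, and Fzd1, Fzd7 and Fzd2 stand above the other Frizzled genes.

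Fzd1 (chr5:4753839-4758035) had 106, 84.6 and 92.5 CPM in control and 119, 94.7 and 100.04 CPM in senescent FAPs. The groups overlapped, and the log2 fold change of 0.14 did not pass the test (95% confidence interval -0.12 to 0.41, limma adjusted p = 0.341). Fzd7 (chr1:59482424-59486955), the Frizzled best known from satellite cells, had 79.7, 61.6 and 80.4 CPM in control and 102, 86.3 and 91.5 CPM in senescent FAPs. All 3 senescent libraries were above the control libraries, with a log2 fold change of 0.34 (SE 0.12, limma adjusted p = 0.0498). The Fzd7 call was lost without control replicate 2 or 3 or any 1 of the senescent replicates (limma adjusted p = 0.0560 to 0.138), with the log2 fold change down to 0.22 without control replicate 2, and also with a pseudocount of 0.1 (0.0508), a filter of 2 CPM (0.0523) and no variance trend (0.0808).

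Fzd10 (chr5:128600844-128604093), whose RefSeq promoter window is printed above, went from near absence to a low level. It had 1, 0 and 0 reads in control replicates 1, 2 and 3 and 62, 50 and 33 reads in senescent replicates 1, 2 and 3. In CPM the senescent libraries held 1.23, 0.837 and 0.743, so all 3 stood apart from the control libraries. The pooled ratio was 144 with an exact 95% counting interval of 25.4 to 5711. The fitted log2 fold change of 1.49 (SE 0.17, limma adjusted p = 6.74e-04) depends on the added 0.5 CPM and is no bound. Even so, Fzd10 remained at 0.288 ± 0.0798 CPM per kb in senescent FAPs, overlapping only Fzd3 among the Frizzled genes.

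Fzd2 had a log2 fold change of -0.09 (95% confidence interval -0.27 to 0.09, limma adjusted p = 0.381), and those of Fzd4, Fzd3 and Fzd8 were -0.13, -0.13 and 0.33 with adjusted p of 0.600, 0.560 and 0.137. Fzd5 (chr1:64730558-64737751) had 28.7, 29.4 and 31.8 CPM in control and 29.8, 17.2 and 18.9 CPM in senescent FAPs, where replicate 1 lay at the control level and replicates 2 and 3 below it. Its log2 fold change of -0.48 did not pass the test (limma adjusted p = 0.0754), whereas it did without senescent replicate 1 (0.00339) and with the replicate number as a block (0.0479). The log2 fold change of Fzd6 was -0.39 (limma adjusted p = 0.151, and 0.0413 with the replicate number as a block). Fzd9, below the filter, had 0.759, 0.285 and 0.323 CPM in control and 0.298, 0.335 and 0.360 CPM in senescent FAPs.

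Of the LRP co-receptors, Lrp5 rose and Lrp6 did not pass the test. Lrp6 (chr6:134446476-134566965) had 179, 181 and 222 CPM in control and 199, 189 and 197 CPM in senescent FAPs, with overlapping groups and a log2 fold change of 0.01 (95% confidence interval -0.21 to 0.24, limma adjusted p = 0.932). Lrp5 (chr19:3584828-3686564) had 40.9, 33.9 and 33.1 CPM in control and 46.6, 41.4 and 44.0 CPM in senescent FAPs. The Lrp5 groups did not overlap, and the rise of 0.29 on the log2 scale (SE 0.10, limma adjusted p = 0.0493) was lost without control replicate 2 or 3 or any 1 senescent replicate (limma adjusted p = 0.0826 to 0.156) and without the variance trend (0.0752). Per length, Lrp6 at 14.2 ± 1.78 CPM per kb exceeded Lrp5 at 3.69 ± 0.441 CPM per kb in control FAPs.

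All 3 receptors of the β-catenin-independent branch passed the test, 1 rising and 2 falling, where 46.1% of all genes tested passed it. Ryk (chr9:102834917-102908305), a receptor with a kinase-like domain that lacks activity and an extracellular domain of the Wif1 type, had 285, 232 and 277 CPM in control and 185, 160 and 177 CPM in senescent FAPs. Every senescent library was below every control library, and Ryk fell by 0.60 on the log2 scale (SE 0.10, limma adjusted p = 0.00285). Ror2 (chr13:53109312-53286124), a receptor of Wnt5a, had 46.0, 26.3 and 35.6 CPM in control and 25.4, 18.0 and 17.3 CPM in senescent FAPs. The Ror2 groups were apart by the narrow gap between control replicate 2 and senescent replicate 1. Ror2 fell by 0.80 on the log2 scale (SE 0.22, limma adjusted p = 0.0210), and this call was lost without control replicate 1 or 3 or senescent replicate 2 or 3 (limma adjusted p = 0.0509 to 0.0802) and after division by library totals (0.0533). Its relative Ror1 (chr4:100095791-100444765) went the other way, with 13.0, 16.7 and 18.8 CPM in control and 21.1, 23.6 and 25.3 CPM in senescent FAPs. The Ror1 groups did not overlap, with a log2 fold change of 0.53 (SE 0.15, limma adjusted p = 0.0220), lost without senescent replicate 2 (0.0738) or 3 (0.0817). Per length, Ror2 stood at 8.47 ± 2.32 and Ror1 at 2.80 ± 0.508 CPM per kb in control FAPs, and at 4.77 ± 1.06 and 4.046 ± 0.369 CPM per kb in senescent FAPs, where their ranges overlapped.

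On log2(CPM + 0.5), secreted antagonists had both of the largest increases and the largest decrease among the tested members. This scale understates the change of low genes. By the ratio of mean CPM, the receptor Fzd10 (126) and Wif1 (10.4) rose more than Frzb (6.36) and Sfrp4 (4.43). Of the 7 secreted antagonists tested, Sfrp4, Frzb, Wif1, Dkk2 and Dkk3 rose, Sfrp2 fell, and Sfrp1 did not pass the test. Among all genes tested, 21.8% were higher and 24.3% lower, and Wif1 passed the filter through its senescent libraries alone. Sfrp1, which binds Wnt proteins through a domain like that of Frizzled, was by far the most abundant member, at 237 ± 84.4 CPM per kb in control and 218 ± 47.2 CPM per kb in senescent FAPs. It made up 95.4% ± 1.82 and 95.8% ± 0.738 of the summed level per kb of the 3 Sfrp genes. The Sfrp genes that changed were therefore the minor ones by level.

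**Figure D4:**
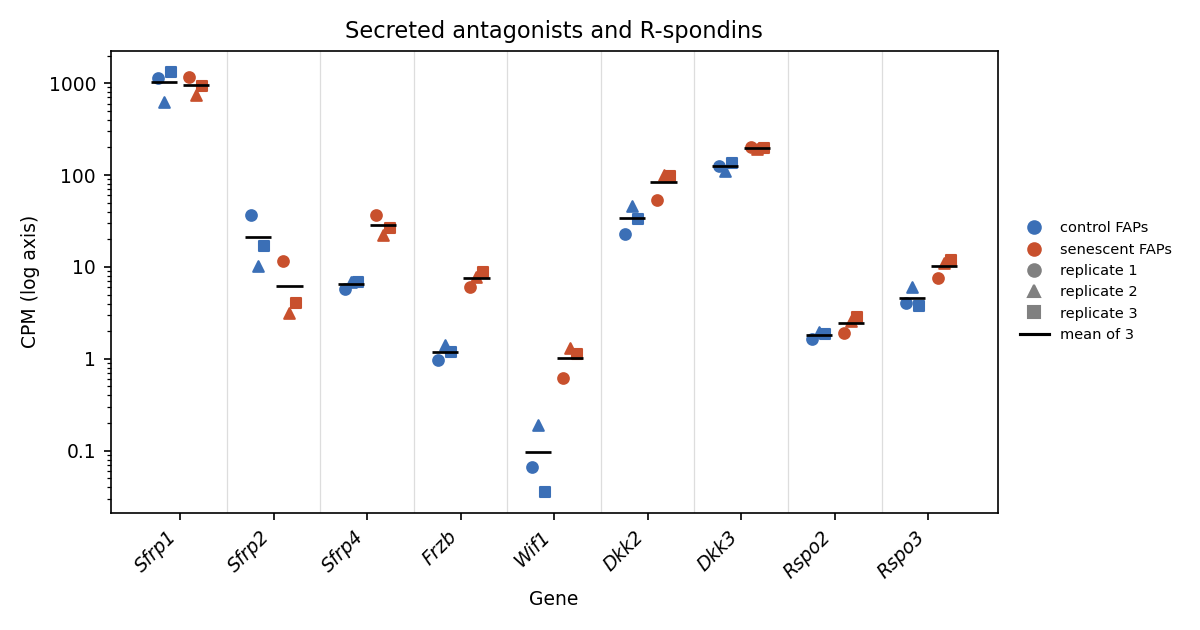
Level of 9 secreted antagonists and R-spondins in CPM on a log axis, with 1 point per library, a marker shape for each replicate number and lines for the means of 3 control and 3 senescent libraries. Sfrp1 overlaps between groups, whereas Sfrp4, Frzb, Wif1, Dkk2, Dkk3 and Rspo3 are higher in all 3 senescent libraries.

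Frzb (chr2:80411970-80447625), also known as Sfrp3 and abundant in cartilage, had 0.982, 1.41 and 1.18 CPM in control and 6.10, 7.76 and 8.89 CPM in senescent FAPs. All 3 senescent libraries were above all control libraries. On log2(CPM + 0.5), Frzb had the largest log2 fold change of the 39 genes at 2.25 (SE 0.18, limma adjusted p = 2.32e-04). Sfrp4 (chr13:19623104-19632994), a Wnt inhibitor of bone and connective tissue, had 5.69, 6.86 and 6.86 CPM in control and 36.7, 22.4 and 26.8 CPM in senescent FAPs. The Sfrp4 groups were far apart, with means of 6.47 ± 0.675 and 28.6 ± 7.33 CPM (SD, n = 3) and a log2 fold change of 2.04 (SE 0.18, limma adjusted p = 3.04e-04). Wif1 (chr10:121033960-121100650), which binds Wnt proteins in the extracellular space, had 3, 10 and 2 reads in control and 31, 78 and 50 reads in senescent FAPs. Its groups were apart, with a pooled ratio of 10.5 (exact 95% counting interval 6.18 to 19.2) and a log2 fold change of 1.32 (SE 0.22, limma adjusted p = 0.00274) that the added 0.5 CPM holds down.

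Sfrp1 (chr8:23411502-23449632) had 1152, 624 and 1334 CPM in control and 1166, 753 and 945 CPM in senescent FAPs. The groups overlapped with replicate 2 the lowest in both, and the log2 fold change was -0.07 with a wide 95% confidence interval of -0.74 to 0.60 (limma adjusted p = 0.860). Sfrp2 (chr3:83766321-83774316), a Wnt modulator of fibroblasts, had 37.2, 10.3 and 16.8 CPM in control and 11.5, 3.18 and 4.03 CPM in senescent FAPs. The Sfrp2 groups overlapped because senescent replicate 1 exceeded control replicate 2, but each senescent library was below the control library of its number, by 1.65, 1.56 and 1.94 on the log2 scale. Sfrp2 fell by 1.72 (SE 0.55, limma adjusted p = 0.0348), and this call was lost without control replicate 1 or 3 or senescent replicate 2 or 3 (limma adjusted p = 0.0712 to 0.120), after division by library totals (0.0501) and without the variance trend (0.0507).

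Dkk3 (chr7:112116017-112159057), a divergent Dickkopf protein, had 127, 112 and 136 CPM in control and 204, 194 and 195 CPM in senescent FAPs. The senescent libraries were close to each other and all above the control libraries, with a log2 fold change of 0.66 (SE 0.09, limma adjusted p = 0.00101). Dkk2 (chr3:132085292-132180304), a ligand of LRP5 and LRP6 that can block them, had 22.7, 46.4 and 33.5 CPM in control and 53.3, 101 and 98.6 CPM in senescent FAPs. All senescent libraries of Dkk2 were above the control libraries, with replicate 1 the lowest of both groups. The log2 fold change of Dkk2 was 1.29 (SE 0.31, limma adjusted p = 0.0121), and leaving out senescent replicate 2 or 3 took its adjusted p to 0.0513 and 0.0542. Per length, Dkk3 rose from 37.2 ± 3.69 to 58.9 ± 1.58 CPM per kb and Dkk2 from 9.23 ± 3.21 to 22.8 ± 7.27 CPM per kb.

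Among the R-spondins, which amplify Wnt signals at the receptor, Rspo3 rose and Rspo2 did not pass the test. Rspo3 (chr10:29452416-29535867) had 4.04, 6.07 and 3.73 CPM in control and 7.58, 11.1 and 11.9 CPM in senescent FAPs. The senescent libraries of Rspo3 were all above the control libraries, with a log2 fold change of 1.07 (SE 0.23, limma adjusted p = 0.00744). Rspo2 had 1.63, 1.98 and 1.85 CPM in control and 1.93, 2.59 and 2.88 CPM in senescent FAPs, overlapping between groups, with a log2 fold change of 0.34 (limma adjusted p = 0.141). Rspo1 had 13, 8 and 8 reads in control and 9, 12 and 8 reads in senescent FAPs and was not tested. Znrf3, the ubiquitin ligase that removes Frizzled and is itself removed by R-spondins, had 17.3, 19.5 and 17.2 CPM in control and 16.6, 12.5 and 13.3 CPM in senescent FAPs. Its groups did not overlap, but the log2 fold change of -0.35 did not pass the test (limma adjusted p = 0.0611) unless senescent replicate 1 was left out (0.0214).

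The genes that Wnt signaling is known to induce in its own cells did not move together. Nkd2, which binds Dishevelled and restrains the pathway, rose. Nkd2 (chr13:73818534-73847631) had 8.23, 24.5 and 15.6 CPM in control and 37.0, 57.8 and 61.7 CPM in senescent FAPs. The groups did not overlap although the control libraries spread widely, and the log2 fold change was 1.76 (SE 0.37, limma adjusted p = 0.00678). Its paralog Nkd1 (chr8:88521354-88594884) had 5.58, 4.03 and 8.51 CPM in control and 3.85, 2.98 and 3.29 CPM in senescent FAPs, with every senescent library below every control library. The Nkd1 log2 fold change of -0.70 (SE 0.25) just missed the threshold (limma adjusted p = 0.0507) and passed it with the replicate number as a block (0.0245), without control replicate 2 (0.00708), in edgeR (0.0472) and in DESeq2 (0.0173).

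**Figure D5:**
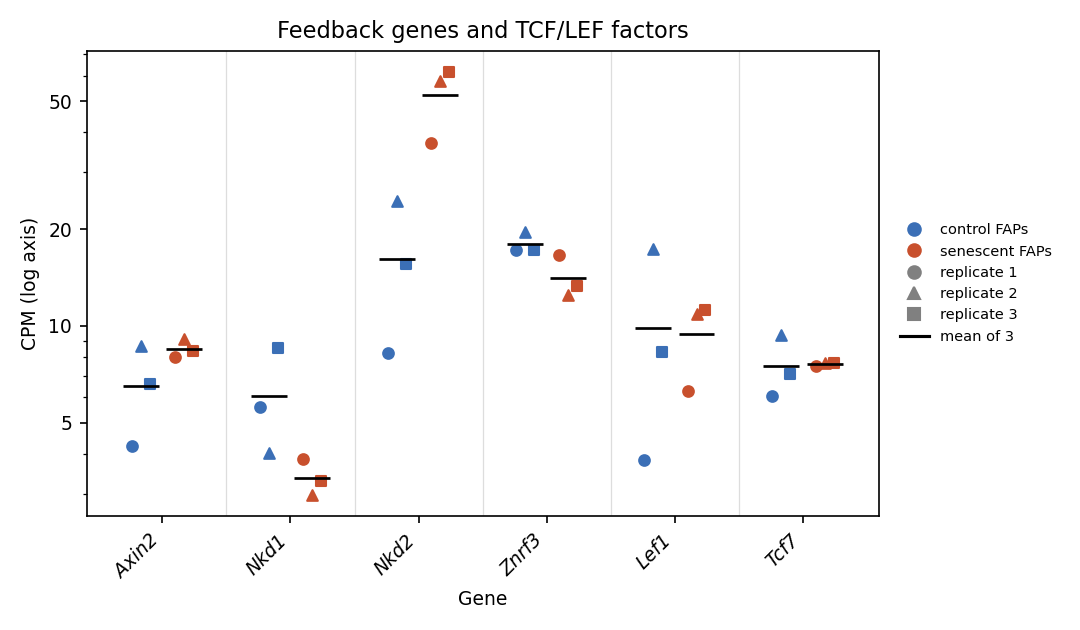
Level of the feedback genes Axin2, Nkd1, Nkd2 and Znrf3 and of the TCF/LEF factors Lef1 and Tcf7 in CPM on a log axis, with 1 point per library, a marker shape for each replicate number and lines for the means of 3 control and 3 senescent libraries. Nkd2 is higher and Nkd1 lower in all 3 senescent libraries, while Axin2, Lef1 and Tcf7 overlap between groups.

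Axin2 (chr11:108920349-108950783), a scaffold of the β-catenin destruction complex and the usual readout of β-catenin signaling, had 4.22, 8.63 and 6.61 CPM in control and 7.98, 9.12 and 8.37 CPM in senescent FAPs. Control replicate 2 lay within the senescent range, and the log2 fold change of 0.41 did not pass the test (95% confidence interval -0.13 to 0.95, limma adjusted p = 0.180) unless that library was left out (0.0261). Lef1 (chr3:131110471-131224356), a nuclear partner of β-catenin, had 3.82, 17.4 and 8.29 CPM in control and 6.27, 10.9 and 11.2 CPM in senescent FAPs. The Lef1 control libraries enclosed the senescent ones, with a log2 fold change of 0.14 (95% confidence interval -0.97 to 1.25, limma adjusted p = 0.832). Tcf7 had 6.05, 9.36 and 7.11 CPM in control and 7.49, 7.68 and 7.65 CPM in senescent FAPs, again overlapping, with a log2 fold change of 0.04 (limma adjusted p = 0.864). For Lef1 in particular, the interval spans changes in either direction that these libraries could not detect.

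Genes around the members in the same pathway were counted in 6 lists, and in all of them the share called was below the 46.1% of all genes tested. Of 10 genes for Wnt secretion and release, 3 rose and 1 fell. The sulfatases Sulf2 and Sulf1, which trim heparan sulfate and can free Wnt proteins from it, rose with log2 fold changes of 1.16 and 0.38 (limma adjusted p = 9.09e-04 and 0.0123), and Porcn, which attaches the lipid to Wnt proteins, fell by 0.81 (limma adjusted p = 0.00773). Of 12 other modulators at the cell surface, 2 rose and 3 fell. The Wnt-binding carboxypeptidase Cpz had a log2 fold change of 2.44 and Reck one of 0.98, whereas Cthrc1 fell by 1.19 and the R-spondin receptor Lgr4 by 0.55 (limma adjusted p = 4.45e-04 to 0.00315 over these 4).

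Inside the cell, 1 of 26 genes of the β-catenin core rose and 5 fell, with a median log2 fold change of -0.11. Apc2 rose (1.53, limma adjusted p = 0.00228), and the scaffold Axin1 and the β-catenin inhibitor Ctnnbip1 fell by 0.40 and 0.46. Ctnnb1, β-catenin itself, had a log2 fold change of -0.05 and did not pass the test (limma adjusted p = 0.651). Of 21 genes of the nuclear β-catenin complex, 1 rose (Tle4, 0.69) and 3 fell, among them Ctbp1 by 0.57 and Smarca4 by 0.41. Of 35 genes of the planar polarity and calcium branch, 6 rose and 7 fell, with Prickle2 (0.92) and Celsr2 (1.12) among those that rose (Celsr2 passed the filter through its senescent libraries alone) and Camk2g and Nfatc1, which fell by 0.63 and 0.45, among those that fell.

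Of 22 known β-catenin target genes, 5 rose and 4 fell, a share called of 40.9% with a median log2 fold change of -0.01. Ccnd1, cyclin D1, had 78.0, 193 and 82.6 CPM in control and 409, 476 and 570 CPM in senescent FAPs, all above the control libraries (log2 fold change 2.15, limma adjusted p = 0.00180). Myc had 70.6, 57.1 and 55.4 CPM in control and 31.4, 24.7 and 21.3 CPM in senescent FAPs, all below the control libraries, and fell by 1.24 on the log2 scale (limma adjusted p = 8.74e-04). Gja1 rose (1.02) and Wisp1 fell by 1.11 (limma adjusted p = 0.00227 and 1.84e-04). These genes are known to answer to many other signals as well.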

How the data were processed

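RNA of 3 control and 3 senescent FAP samples was sequenced, and groups and replicate numbers were taken from the sample labels. The authors prepared stranded mRNA libraries (TruSeq), counted reads per gene and scaled them in edgeR (version 3.10, R 3.6.0). They deposited 1 signal per gene and library, CPM of the effective library size, for mm10 per the labels. The aligner, counter and annotation are not given in the sources used here. The planned test for plain CPM was kept. Relative to the reads on genes, effective library sizes carried a factor of 0.917 to 0.940 in control and 1.07 to 1.09 in senescent libraries. This factor follows the groups, and the calls under division by library totals are given below. Whole reads were recovered for 100% of values (tolerance 0.001 reads), and 41412179 to 59912520 reads per library set the precision. Of 16895 table rows, 1 names no gene (0.00409% to 0.00699% of reads) and was left out. A chi-square statistic per gene of 15.1 to 162.5 between replicates showed no library deposited in duplicate.

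Genes that reached 0.5 CPM in 3 or more libraries entered limma 3.58.1 (under R 4.3.3), which was run on log2(CPM + 0.5), with a variance trend and two-sided tests and with Benjamini-Hochberg adjustment over 14776 genes. The code was tested on simulated data. Levels per kb used the exon union of GENCODE M21 (GRCm38), and promoters came from RefSeq (GRCm38.p6). Deviations from group means correlated between libraries of the same number (r = 0.537, 0.308 and 0.207 for replicates 1, 2 and 3, across genes, which are not independent replicates). Equal numbers were therefore treated as pairs in an alternative with the replicate number as a block, a hint from the data and not from the labels. The other alternatives were pseudocounts of 0.1 and 1, no filter or 2 CPM, median-of-ratios rescaling, division by library totals, each library left out, no variance trend, edgeR 4.0.16 quasi-likelihood and DESeq2 1.42.0 on recovered reads, and, added after the data were seen, the longest transcript as length and counts without genes that passed the filter through one group alone. The values of named marker genes were also chosen after they were seen.

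Every member found by the rule is named. Library values are given for members whose log2 fold change exceeded 0.5 at an adjusted p below 0.05 and for the 2 members of each role with the highest mean CPM. From the other pathway lists, the 2 genes of smallest p in each direction among those past the threshold are named. Library values of Wnt1, Wnt4, Fzd5, Fzd9 and Nkd1, and the values of Ctnnb1, were added after they were seen. The members and lists were chosen with earlier results of these data known.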

Additional observations from a re-analysis of the deposited data

How the results depend on the processing

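No called member changed direction under any alternative run. Wnt2, Ryk, Sfrp4, Frzb, Dkk3, Rspo3 and Nkd2 kept their calls in all of them, as did Fzd10 and Wif1 in all except the filter of 2 CPM, under which these genes were not tested. Division by library totals moved the median log2 fold change of all genes from -0.03 to 0.17, raised the higher calls of all genes to 4992 and lowered the lower calls to 1929, and left 2 members lower. With it Fzd1, Fzd8 and Rspo2 passed the test (adjusted p = 0.0298, 0.0277 and 0.0442), and Ryk fell by 0.39. The replicate block, for pairs of equal number, left 7 members lower by adjusted p and 2 by p and fold. It brought in Wnt1, Fzd5, Fzd6 and Nkd1 and changed no other member's call. Leaving out each library gave 2130 to 3405 higher and 2416 to 3875 lower genes over all genes. For the members it gave 8 to 12 higher and 1 to 6 lower by adjusted p, and 5 to 8 higher and 0 to 3 lower by p and fold. edgeR brought in Nkd1, and DESeq2 brought in Wnt1 and Nkd1 and lost Wnt9a. The fitted log2 fold change of Fzd10 ranged from 0.94 to 7.09 and that of Wif1 from 0.86 to 3.41. The longest transcript as length moved 14 members' levels beyond 1 SD, by up to 2.40-fold for Lef1. Depth limits Wnt7b, Wnt8b, Rspo1, Fzd10 and Wif1.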

Other observations

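Replicate 1 was the lowest library of both groups in 15 of the 39 tested members (38.5%), namely Wnt2b, Wnt4, Wnt2, Wnt9a, Wnt5a, Wnt1, Fzd6, Ror1, Frzb, Dkk2, Rspo2, Axin2, Nkd2, Lef1 and Tcf7, against 19.7% of all genes tested. It was the highest library of both groups in 8 members (20.5%), namely Wnt16, Fzd1, Fzd10, Fzd4, Lrp5, Ror2, Ryk and Sfrp2, against 20.2% of all genes tested. This pattern was noticed after the values were seen, it concerns equal replicate numbers and not the treatment, and no test was made of it.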
